A study of Mus musculus with 8 samples.

Results

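The question addressed here is whether loss of Fpr2 changed the response of the right ventricle to SuHx. The members are all 19083 tested genes of the 30495 in the deposited table, measured in all 8 libraries, which fall into 4 groups of 2. Fpr2-KO SuHx and WT SuHx mice were given Sugen (20 mg/kg) and kept in hypoxia for 21 days. Fpr2-KO control and WT control mice spent the same 21 days in normal oxygen. All were females, 8 weeks old, and the right ventricle was sampled. WT is the wild type. For 3 of the 4 Fpr2-KO samples another label field names Fpr3, Fpr4 or Fpr5 instead, and the titles were followed. The labels give no strain, no construction of the knockout and no litter, and do not say that the libraries of a group came from separate animals. P-values then measure the spread between these libraries, which may be technical.

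The product of Fpr2 is a G protein-coupled receptor found on neutrophils, macrophages and other cells. It binds formylated peptides from bacteria and mitochondria as well as annexin A1 and lipid mediators, and it can start or resolve inflammation depending on the ligand. Sugen blocks VEGF receptors, and together with hypoxia it narrows the vessels of the rodent lung, so that the right ventricle pumps against a higher pressure. The interaction is the SuHx change in Fpr2-KO minus the SuHx change in WT, on the log2 scale. It equals the Fpr2-KO minus WT difference under SuHx less the same difference in controls. A negative interaction means that SuHx raised the gene less, or lowered it more, in Fpr2-KO than in WT.

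Fpr2 had 0 counts in all 4 Fpr2-KO libraries, against 12 and 12 counts in WT SuHx and 19 and 23 counts in WT control. With a floor of 3 counts over the Fpr2-KO libraries, it was at least 21.5-fold lower there, a bound that covers counting error only. The libraries held 67965311 to 76292772 counts, of which mitochondrially coded genes took 24.2% to 28.2%. Myl2, the myosin light chain that marks ventricular muscle, was high throughout (2888 and 3275 CPM in Fpr2-KO SuHx, 2960.3 and 2888 CPM in Fpr2-KO control, 3590.4 and 3396 CPM in WT SuHx and 2119 and 2435 CPM in WT control). CPM are counts relative to the library's total, scaled between libraries by TMM. Fpr2-KO SuHx library 2 stands apart by atrial genes: its 10 atrial markers summed to 2944 CPM, against 139 CPM in library 3 of its group, 133 and 176 CPM in Fpr2-KO control, 169 and 189 CPM in WT SuHx and 207 and 442 CPM in WT control. WT control library 1 stands apart by glucocorticoid and fasting genes, whose 17 members summed to 10045 CPM there and to 4948 CPM in WT control library 2, against at most 2346 CPM in the other 6 libraries. The libraries of WT control also differed more from each other than those of any other group. The median absolute log2 difference between libraries of a pair was 0.21 in Fpr2-KO SuHx, 0.24 in Fpr2-KO control, 0.19 in WT SuHx and 0.31 in WT control. The table splits Nnt, a mitochondrial enzyme gene, into 2 overlapping models. The model ENSMUSG00000116207 had 0 counts in the 4 Fpr2-KO libraries. It had 16037 and 12351 counts in WT SuHx and 45195 and 17138 counts in WT control, so it was seen in WT only. The model ENSMUSG00000025453 had 58711 and 62166 counts in Fpr2-KO SuHx, 103194 and 96155 in Fpr2-KO control, 25289 and 23060 in WT SuHx and 6023 and 28437 in WT control. In WT control library 1, 45195 of the 51218 counts of the 2 models fell in ENSMUSG00000116207. The share was lower in WT control library 2 (17138 of 45575) and in WT SuHx libraries 1 (16037 of 41326) and 3 (12351 of 35411). The split thus differed within WT too, and a difference between the groups beyond Fpr2 was not tested.

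No gene had an interaction past an adjusted p of 0.05 in edgeR's quasi-likelihood test. The count was 0 of 19083 (0%), and the smallest adjusted p was 0.0794. At an unadjusted p under 0.05 there were 2417 genes (12.7%), 1116 positive (5.85%) and 1301 negative (6.82%). DESeq2's Wald test on the same counts called 584 of the 13533 genes to which it gave an adjusted p (4.32%), 250 positive (1.85%) and 334 negative (2.47%). The 2 tools thus disagree on whether any single gene passes, and the interactions below are given as values with both. Leaving out a library moved the edgeR count between 0 and 756. The 756 came without WT control library 2, with the lone WT control library then assumed to vary like the other groups. The other counts above 0 were 3 without either library of WT SuHx and 5 without WT control library 1.

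Behind the interaction, the genotypes differed more in controls than under SuHx. In controls edgeR called 497 genes in Fpr2-KO against WT (2.6%), 272 higher (1.43%) and 225 lower (1.18%). Under SuHx it called 0 (0%), with 664 at an unadjusted p under 0.05 (3.48%), and DESeq2 called 23 (0.131%). The median absolute genotype difference was 0.16 under SuHx and 0.31 in controls on the log2 scale, the second about the size of the spread within the WT control pair. The control count rests on few libraries: it was 0 without Fpr2-KO control library 2, 6 without Fpr2-KO control library 3, 123 without WT control library 1 and 2370 without WT control library 2. It was 228 and 205 without Fpr2-KO SuHx libraries 2 and 3 and 172 and 175 without WT SuHx libraries 1 and 3, which enter only through the estimate of the spread. In controls DESeq2 called 1944 (12.6%). SuHx against control called 2038 genes in Fpr2-KO (10.7%), 941 higher (4.93%) and 1097 lower (5.75%). In WT it called 3919 (20.5%), 2082 higher (10.9%) and 1837 lower (9.63%), and these counts do not test whether the responses differ.

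The 4 group means of each gene were then compared to see which one stood apart. A group stands apart when its mean log2 CPM is the highest or lowest of the 4 and its gap to the next mean exceeds 0.5 of the range of the 4 means. This sorting uses the same values as the interaction and is a description without a test. Fpr2-KO SuHx stood apart in 1237 of the 19083 genes (6.48%), Fpr2-KO control in 2487 (13%), WT SuHx in 1251 (6.56%) and WT control in 4149 (21.7%), and 9959 (52.2%) had no single group apart. Among the 2417 genes at an unadjusted interaction p under 0.05, Fpr2-KO SuHx stood apart in 65 (2.69%), Fpr2-KO control in 465 (19.2%), WT SuHx in 82 (3.39%) and WT control in 1096 (45.3%). The 584 genes of DESeq2 had Fpr2-KO SuHx apart in 6, Fpr2-KO control in 96, WT SuHx in 12 and WT control in 331. WT control was the highest group in 501 and the lowest in 595 of the 2417. Both WT control libraries lay beyond all 6 others in 67.7% of the 4149 genes sorted to that group. The share was 47% for Fpr2-KO SuHx, 61% for Fpr2-KO control and 42.8% for WT SuHx. Leaving out 1 library at a time, WT control took 38.5% to 54.3% of the genes with 1 group apart, against 45.5% with all 8 libraries. This share does not show that single genes stayed where they were sorted. Of the genes with 1 group apart, 63.7% (without WT control library 1) to 77.3% (without WT SuHx library 1) kept their sorting.

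**Figure D1:**
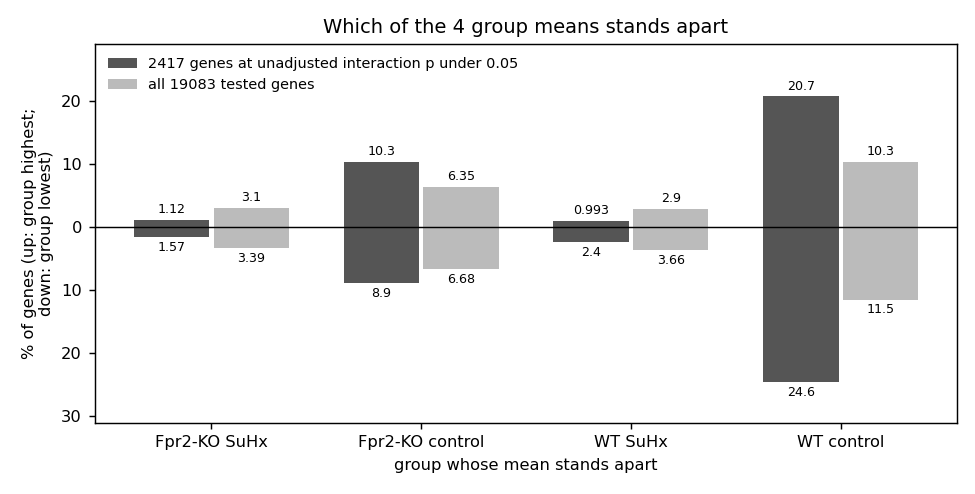
Share of genes (%, vertical axis) in which each group's mean is the highest (bars up) or the lowest (bars down) and stands apart, for the 2417 genes at an unadjusted interaction p under 0.05 (dark bars) and for all 19083 tested genes (light bars). WT control has the tallest dark bars, 20.7% up and 24.6% down, and the SuHx groups the shortest.

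Control groups stood apart in these genes more often than SuHx groups, in both directions. In 87.8% of the 2417 genes the genotype difference was larger in controls than under SuHx, against 65.9% of all tested genes. The first share follows in part from the choice by interaction p. Named below are the 30 genes of smallest interaction p that reached a mean of 5 CPM in at least 1 group. Of these, 23 had a negative and 7 a positive interaction, with edgeR adjusted p from 0.0794 to 0.118, and DESeq2 called all 30. In the single comparisons edgeR called 29 of the 30 in Fpr2-KO against WT controls, 26 in SuHx against control in WT, 11 in SuHx against control in Fpr2-KO and 0 in Fpr2-KO against WT under SuHx. These counts are descriptions, since the 30 were chosen on the same libraries. WT control stood lowest and apart in 16 of the 30 and highest and apart in 5, Fpr2-KO control stood highest in 3, and 6 had no single group apart.

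**Figure D2:**
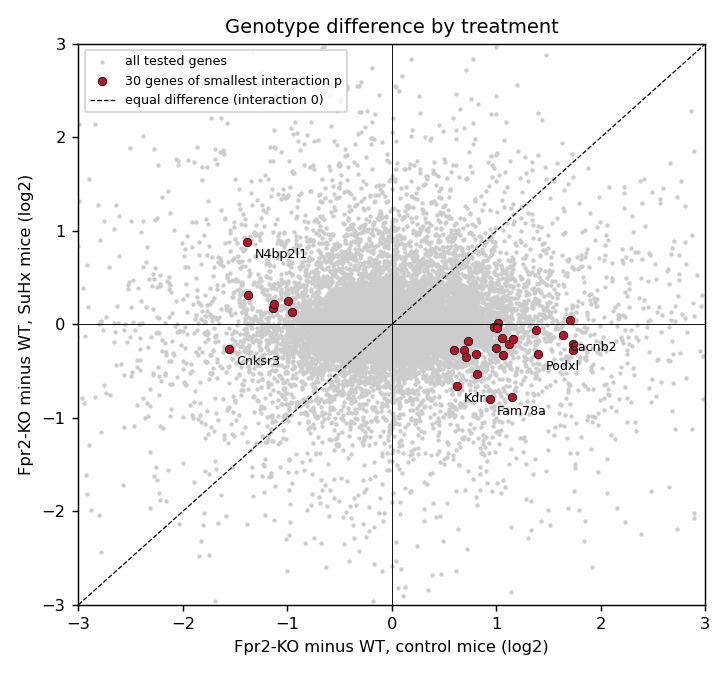
Fpr2-KO minus WT difference in controls (log2, horizontal axis) against the same difference under SuHx (log2, vertical axis) for all tested genes (grey) and the 30 genes of smallest interaction p (red); genes beyond the axes are not drawn, and the dashed line marks an interaction of 0. The red points spread along the horizontal axis and lie near 0 on the vertical one.

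Vessel genes are the first group among the 30. Podxl (ENSMUSG00000025608, mm10 chromosome 6, 31519488 to 31563981, minus strand), the gene of podocalyxin, a sialomucin of the endothelial surface, had 151 and 124 CPM in Fpr2-KO SuHx, 121 and 122 CPM in Fpr2-KO control, 178 and 164 CPM in WT SuHx and 41.3 and 50.5 CPM in WT control. Both WT control libraries lay far below the other 6, with no overlap. Its interaction was -1.72 ± 0.19 (log2 ± SE; edgeR adjusted p = 0.0794, DESeq2 adjusted p = 6.64e-12). SuHx raised it in WT by 1.90 ± 0.14 (edgeR adjusted p = 0.000432), while the SuHx difference in Fpr2-KO was 0.18 ± 0.13 and not called.

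Neuropilin 1, encoded by Nrp1 (ENSMUSG00000025810, mm10 chromosome 8, 128358604 to 128462081, plus strand), is a coreceptor of VEGF and semaphorins. It was at 88 and 80.8 CPM in Fpr2-KO SuHx, 113 and 98.3 CPM in Fpr2-KO control, 93.9 and 101 CPM in WT SuHx and 47.7 and 49.4 CPM in WT control. The WT controls were again below all other libraries, and Fpr2-KO without SuHx was no lower than Fpr2-KO with it. The interaction was -1.33 ± 0.15 (edgeR adjusted p = 0.0794), made of a Fpr2-KO minus WT difference of -0.21 ± 0.10 under SuHx and 1.12 ± 0.11 in controls. Kdr, the main signalling receptor of VEGF and a target of Sugen, had 109.5 and 108 CPM in Fpr2-KO SuHx, 116 and 135 CPM in Fpr2-KO control, 196 and 147 CPM in WT SuHx and 82.5 and 80.5 CPM in WT control. Here WT SuHx was the highest group, the Fpr2-KO groups lay between and overlapped in no library with WT control, and no single group stood apart. SuHx raised Kdr in WT by 1.08 ± 0.14 (edgeR adjusted p = 0.00204) and its difference in Fpr2-KO was -0.21 ± 0.14 (adjusted p = 0.391), an interaction of -1.28 ± 0.20. Kdr is the gene among the 30 not called between the control groups (0.62 ± 0.14, adjusted p = 0.0589).

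Further endothelial genes were among the 30. Fgd5, an activator of Cdc42 in endothelium, had an interaction of -1.04 ± 0.16 and was at 36.3 and 36.1 CPM in Fpr2-KO SuHx, 42.7 and 40.6 CPM in Fpr2-KO control, 37.8 and 36.4 CPM in WT SuHx and 22.3 and 19.1 CPM in WT control. Ppp1r16b, a regulatory subunit of protein phosphatase 1 in endothelium, had -1.94 ± 0.25, with 7.76 and 8.93 CPM in Fpr2-KO SuHx, 14.6 and 12 CPM in Fpr2-KO control, 10.3 and 8.97 CPM in WT SuHx and 4.07 and 3.96 CPM in WT control. In both genes the WT controls were lowest and Fpr2-KO control was highest. She, an SH2 adaptor gene, had an interaction of -0.97 ± 0.16. Cyyr1 had 30.9 and 31.9 CPM in Fpr2-KO SuHx, 46.8 and 53 CPM in Fpr2-KO control, 39.9 and 40.3 CPM in WT SuHx and 27.5 and 33.5 CPM in WT control and an interaction of -1.06 ± 0.17, with Fpr2-KO control highest and no single group apart.

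Genes of excitation and calcium entry form the second group. The gene with the smallest p of all was Cacnb2 (ENSMUSG00000057914, mm10 chromosome 2, 14603088 to 14987908, plus strand), a beta subunit of the L-type calcium channel that brings the channel to the membrane. Its levels were 71.1 and 75.4 CPM in Fpr2-KO SuHx, 106 and 109 CPM in Fpr2-KO control, 82.6 and 75.5 CPM in WT SuHx and 30.8 and 38.5 CPM in WT control. Each genotype moved its own way: SuHx raised Cacnb2 in WT by 1.19 ± 0.12 (edgeR adjusted p = 0.000905) and lowered it in Fpr2-KO, where the difference was -0.55 ± 0.12 (adjusted p = 0.0273). The interaction was -1.74 ± 0.17 (edgeR adjusted p = 0.0794, DESeq2 adjusted p = 5.2e-14). Under SuHx the genotypes were -0.11 ± 0.12 apart and in controls 1.63 ± 0.12. Models of other genes overlap Cacnb2 on the opposite strand, and the same holds for Mtmr14, Daam1, Wnk1 and Sh3rf1 below. Since the strand setting of the counting is not given, reads of the 2 strands cannot be told apart. Models on the same strand also overlap Cacnb2, Cyyr1, Fam78a and N4bp2l1, and there the strand would not separate the reads.

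Akap6, which anchors protein kinase A at the nuclear envelope of heart muscle cells, stood apart by Fpr2-KO control: it had 110.0 and 112 CPM in Fpr2-KO SuHx, 182 and 179 CPM in Fpr2-KO control, 126 and 124 CPM in WT SuHx and 102 and 116 CPM in WT control. Its interaction was -0.91 ± 0.13, from a SuHx difference of -0.70 ± 0.09 in Fpr2-KO (adjusted p = 0.00596) and 0.20 ± 0.09 in WT (not called).

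Slc6a6 (ENSMUSG00000030096, mm10 chromosome 6, 91684053 to 91759066, plus strand), the taurine transporter, had the same shape. The libraries held 105 and 95.1 CPM in Fpr2-KO SuHx, 213 and 213 CPM in Fpr2-KO control, 142 and 108 CPM in WT SuHx and 104 and 99.7 CPM in WT control. Both libraries of Fpr2-KO control lay above the other 6. The interaction was -1.39 ± 0.18 (edgeR adjusted p = 0.0943), and SuHx lowered Slc6a6 in Fpr2-KO (-1.09 ± 0.13, adjusted p = 0.00423). Il15ra, the receptor chain that presents interleukin 15, was at 18.7 and 20.6 CPM in Fpr2-KO SuHx, 37.1 and 35.7 CPM in Fpr2-KO control, 19.7 and 24 CPM in WT SuHx and 14.7 and 17.8 CPM in WT control, likewise highest in Fpr2-KO control, with an interaction of -1.32 ± 0.21.

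**Figure D3:**
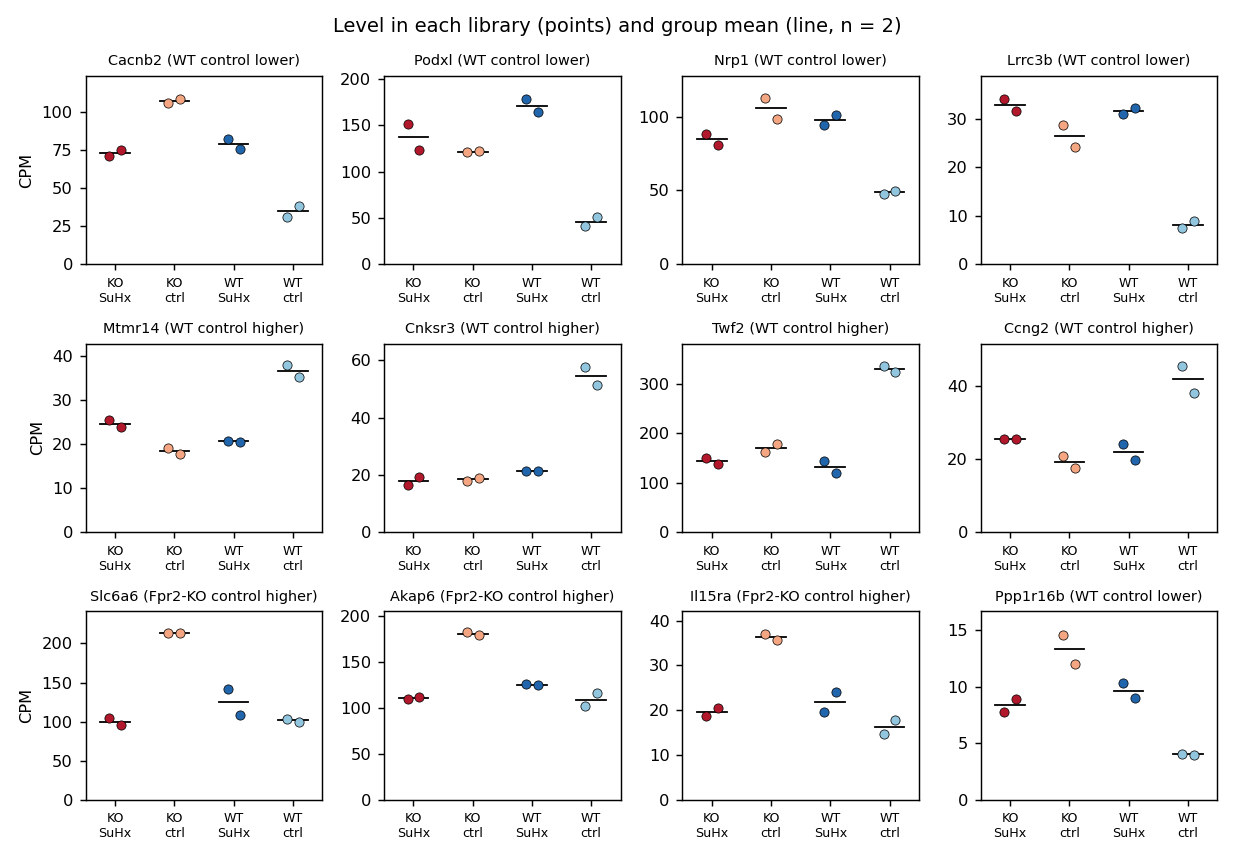
CPM (vertical axes, from 0) of 12 of the 30 genes in each library (points) with the mean of each group of 2 (line), for Fpr2-KO SuHx, Fpr2-KO control, WT SuHx and WT control. The WT controls lie lowest in the top row and highest in the middle row, and Fpr2-KO control lies highest in the bottom row.

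Cytoskeleton and transport genes split by direction. Twf2, encoding twinfilin 2, which binds actin monomers, had 149 and 137 CPM in Fpr2-KO SuHx, 162 and 178 CPM in Fpr2-KO control, 143 and 119 CPM in WT SuHx and 336 and 324 CPM in WT control. Both WT controls were well above the other 6 libraries. Its interaction was 1.09 ± 0.16, and SuHx lowered it in WT (-1.33 ± 0.12, edgeR adjusted p = 0.000571). In contrast to Twf2, WT control was lowest for Daam1, a formin that builds actin filaments (interaction -1.25 ± 0.16), for Clasp1, which stabilises microtubule ends (-0.87 ± 0.13), and for Trak2, which links mitochondria to kinesin (edgeR adjusted p = 0.106). Wnk1, a kinase that controls ion cotransport, was at 327 and 348 CPM in Fpr2-KO SuHx, 363 and 342 CPM in Fpr2-KO control, 374 and 373 CPM in WT SuHx and 147 and 191 CPM in WT control and had an interaction of -1.20 ± 0.18.

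WT control was the highest group for a further set. Mtmr14 (ENSMUSG00000030269, mm10 chromosome 6, 113237843 to 113281392, plus strand), a phosphatase of phosphoinositides in muscle, had 25.4 and 23.8 CPM in Fpr2-KO SuHx, 19.2 and 17.7 CPM in Fpr2-KO control, 20.7 and 20.6 CPM in WT SuHx and 38 and 35.4 CPM in WT control. Cnksr3 (ENSMUSG00000015202, mm10 chromosome 10, 7119063 to 7212237, minus strand), a scaffold protein known in kidney as a promoter of sodium channel activity, had 16.5 and 19.1 CPM in Fpr2-KO SuHx, 17.9 and 19 CPM in Fpr2-KO control, 21.5 and 21.2 CPM in WT SuHx and 57.8 and 51.3 CPM in WT control. For Cnksr3 the 6 libraries other than WT control spanned a narrow range far below WT control. The interactions were 1.25 ± 0.16 for Mtmr14 and 1.30 ± 0.17 for Cnksr3, and SuHx lowered both in WT (-0.83 ± 0.11 and -1.36 ± 0.12, edgeR adjusted p = 0.00206 and 0.000589). In Fpr2-KO the SuHx difference was 0.42 ± 0.11 for Mtmr14 (adjusted p = 0.0471) and -0.05 ± 0.12 for Cnksr3 (not called).

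The promoters of Mtmr14 and Cnksr3 are shown because both genes were highest in WT control and both windows carry GTAAACA, a heptamer bound by forkhead factors such as the FoxO proteins. The heptamer is in capitals, read on either strand. The sequences run 5′ to 3′ on the gene's strand, from 250 bases before to 50 bases after its start, and are from RefSeq (GRCm38.p6), Mtmr14 at chr6:113237593-113237892 (plus strand) and Cnksr3 at chr10:7212188-7212487 (minus strand).
Mtmr14: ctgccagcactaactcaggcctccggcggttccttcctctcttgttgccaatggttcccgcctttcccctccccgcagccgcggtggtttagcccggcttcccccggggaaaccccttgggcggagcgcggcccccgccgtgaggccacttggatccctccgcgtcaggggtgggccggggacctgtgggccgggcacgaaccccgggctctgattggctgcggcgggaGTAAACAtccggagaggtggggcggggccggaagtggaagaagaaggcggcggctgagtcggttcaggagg
Cnksr3: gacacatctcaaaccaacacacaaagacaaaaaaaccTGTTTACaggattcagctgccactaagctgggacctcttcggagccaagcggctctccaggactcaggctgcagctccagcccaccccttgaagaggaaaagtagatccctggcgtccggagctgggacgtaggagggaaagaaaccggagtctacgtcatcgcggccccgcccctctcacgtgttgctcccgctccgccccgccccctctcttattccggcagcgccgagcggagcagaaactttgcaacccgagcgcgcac

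A RefSeq promoter entry exists for 24 of the 30 genes, and 3 of the 24 (12.5%) hold the heptamer, the third being Akap6. Over all 32851 promoters the share is 3.65%, and over tested genes it is 3.22% of 12683. Among genes at an unadjusted interaction p under 0.05, it was 28 of 396 (7.07%) where WT control stood highest and 6 of 453 (1.32%) where it stood lowest. Where Fpr2-KO control stood apart, it was 5 of 186 (2.69%) for the highest and 10 of 158 (6.33%) for the lowest. GTAAACA was 1 of 10 motifs searched on both strands with the levels known. The others were the E-box CACGTG, its extension TCACGTG, the longer CLEAR element of lysosomal genes, which contains both, and ACGTG, which all of these contain. Searched as well were the cAMP element TGACGTCA, the glucocorticoid element, the serum response element, the STAT motif TTCCNGGAA and the TEAD motif CATTCC. The E-box CACGTG was in 13.6% of the genes with WT control highest, 7.95% of those with WT control lowest and 11% of tested genes. These shares describe letters in a window, with no test and no statement on binding.

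Of the remaining positive interactions, Ccng2, an atypical cyclin associated with cell cycle arrest, had 25.4 and 25.4 CPM in Fpr2-KO SuHx, 20.7 and 17.5 CPM in Fpr2-KO control, 24 and 19.7 CPM in WT SuHx and 45.4 and 38.1 CPM in WT control (interaction 1.35 ± 0.21). N4bp2l1 was at 3.68 and 3.48 CPM in Fpr2-KO SuHx, 2.86 and 2.12 CPM in Fpr2-KO control, 2.07 and 1.81 CPM in WT SuHx and 7.19 and 5.81 CPM in WT control (2.27 ± 0.36). Pld1, a phospholipase D, had 10.4 and 10.4 CPM in Fpr2-KO SuHx, 5.9 and 5.84 CPM in Fpr2-KO control, 7.27 and 9.39 CPM in WT SuHx and 17.3 and 13.2 CPM in WT control (1.70 ± 0.27). For each of these 3 genes SuHx against control was called lower in WT, and for Pld1 it was also called higher in Fpr2-KO (0.82 ± 0.19, edgeR adjusted p = 0.0319). Cir1, a corepressor in Notch signalling, had an interaction of 1.31 ± 0.20, but overlaps Scrn3 and Sp9 on the opposite strand.

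Of the remaining negative ones, Lrrc3b, encoding a leucine-rich repeat membrane protein, had 33.9 and 31.5 CPM in Fpr2-KO SuHx, 28.6 and 24.2 CPM in Fpr2-KO control, 30.9 and 32.2 CPM in WT SuHx and 7.38 and 8.85 CPM in WT control. The WT controls lay far below the other 6 libraries, and the interaction was -1.65 ± 0.19; a noncoding gene overlaps it on the opposite strand. Fam78a, with Nup214 on its opposite strand, was at 18.5 and 19 CPM in Fpr2-KO SuHx, 13.2 and 13.8 CPM in Fpr2-KO control, 32.7 and 32.6 CPM in WT SuHx and 8.33 and 5.81 CPM in WT control, an order of WT SuHx, Fpr2-KO SuHx, Fpr2-KO control and WT control with no overlap between groups. Gipc3 (-1.93 ± 0.28), Sh3rf1, a JNK pathway scaffold (-2.01 ± 0.30), St8sia4, a polysialic acid synthase (-1.44 ± 0.23), Tmx2, a membrane protein of the endoplasmic reticulum (-1.01 ± 0.15), and Qrsl1, of mitochondrial translation (-1.12 ± 0.17), had WT control lowest. Tmx2 overlaps Med19 on the opposite strand.

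The genes were next read in 46 lists of pathways and cell types, by the number of members at an unadjusted interaction p under 0.05, to be set against 12.7% of all tested genes, and by their median interaction, which over all genes was -0.01. No member of any list had an adjusted p under 0.05 in edgeR. In bulk tissue, fewer cells of a type and less RNA per cell cannot be told apart.

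**Figure D4:**
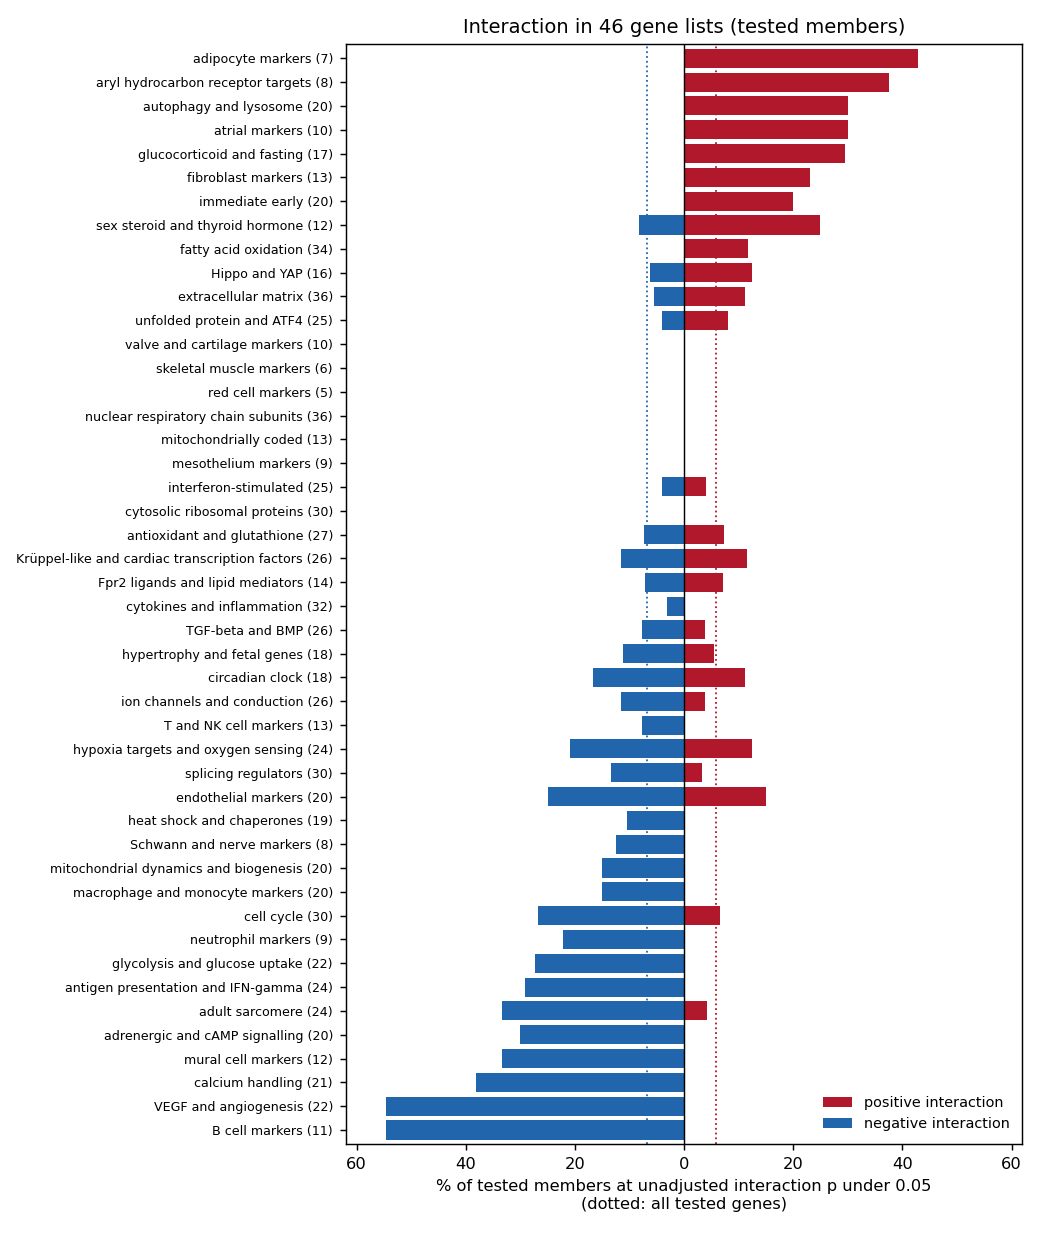
Share of tested members (%, horizontal axis; number tested in brackets) at an unadjusted interaction p under 0.05 in each of 46 gene lists, with positive interactions to the right and negative to the left; dotted lines give the shares over all tested genes. VEGF, B cell and calcium handling genes are among those that extend to the left. Adipocyte, aryl hydrocarbon receptor, autophagy and glucocorticoid genes are among those that extend to the right.

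Genes of VEGF signalling and vessel growth had more members negative than positive. Of 22 tested, 12 had a negative and 0 a positive interaction at unadjusted p under 0.05, the median was -0.60, and DESeq2 called 9, all negative. edgeR called 6 of the 22 higher in Fpr2-KO than in WT controls and 0 lower. SuHx raised 12 and lowered 0 in WT, and raised 3 and lowered 2 in Fpr2-KO. Leaving out any 1 library gave 9 to 14 negative and at most 1 positive. Besides Nrp1 and Kdr, the receptor gene Plxnd1, for semaphorins, had 136 and 151 CPM in Fpr2-KO SuHx, 95.2 and 96.5 CPM in Fpr2-KO control, 159.7 and 135 CPM in WT SuHx and 34 and 48.1 CPM in WT control, an interaction of -1.26 ± 0.23 (edgeR adjusted p = 0.118). Apln, the ligand apelin of growing vessels, had 14.2 and 16.6 CPM in Fpr2-KO SuHx, 3.19 and 1.95 CPM in Fpr2-KO control, 25.2 and 16.4 CPM in WT SuHx and 0.847 and 0.805 CPM in WT control. Apelin was thus near absent in WT control and somewhat higher in Fpr2-KO control, and SuHx raised it in both genotypes, by 2.58 ± 0.28 in Fpr2-KO and 4.65 ± 0.32 in WT (interaction -2.07 ± 0.40). Angpt2, the angiopoietin that loosens vessels, was at 5.47 and 4.6 CPM in Fpr2-KO SuHx, 5.2 and 5.12 CPM in Fpr2-KO control, 4.91 and 5.37 CPM in WT SuHx and 1.94 and 1.87 CPM in WT control, with WT control alone lower. Vegfa, the ligand itself, had 193 and 255 CPM in Fpr2-KO SuHx, 345 and 335 CPM in Fpr2-KO control, 251 and 225 CPM in WT SuHx and 229.8 and 218 CPM in WT control, with Fpr2-KO control highest (interaction -0.69 ± 0.19).

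Endothelial markers did not follow as a whole. Of 20, 5 had a negative and 3 a positive interaction at unadjusted p under 0.05, with a median of 0.01, and 3 were negative without Fpr2-KO control library 2 or WT SuHx library 1. Tie1, an endothelial receptor, was at -0.50 ± 0.14, whereas Car4, a capillary carbonic anhydrase, was at 1.07 ± 0.24 with 11.2 and 10.5 CPM in Fpr2-KO SuHx, 22.6 and 27.1 CPM in Fpr2-KO control, 11 and 9.3 CPM in WT SuHx and 55.7 and 42.2 CPM in WT control. Mural cell markers had 4 of 12 negative and 0 positive, and 2 negative without Fpr2-KO SuHx library 3, Fpr2-KO control library 2 or WT SuHx library 1. Acta2, smooth muscle actin, had 231 and 235 CPM in Fpr2-KO SuHx, 124 and 128 CPM in Fpr2-KO control, 225 and 298 CPM in WT SuHx and 54.9 and 86.8 CPM in WT control. The controls lay below the SuHx libraries in each genotype.

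Calcium handling genes had 8 of 21 negative and 0 positive (median -0.35), with 6 to 11 negative when 1 library was left out. DESeq2 called 6 negative and 1 positive. Srl, encoding sarcalumenin of the sarcoplasmic reticulum, had 688 and 743 CPM in Fpr2-KO SuHx, 593 and 553 CPM in Fpr2-KO control, 742 and 808 CPM in WT SuHx and 347 and 398 CPM in WT control. Casq2, the calcium store protein calsequestrin, had 709 and 864 CPM in Fpr2-KO SuHx, 497 and 483 CPM in Fpr2-KO control, 754 and 731 CPM in WT SuHx and 276 and 317 CPM in WT control. Both were lowest in WT control and rose under SuHx in WT, by 1.06 ± 0.11 and 1.32 ± 0.12. Casq2 was also called in Fpr2-KO (0.68 ± 0.12, edgeR adjusted p = 0.0128) and Srl was not (0.32 ± 0.10). Cacna1g, a T-type calcium channel, was at 16 and 20.2 CPM in Fpr2-KO SuHx, 17.3 and 17.4 CPM in Fpr2-KO control, 17.8 and 21.9 CPM in WT SuHx and 2.59 and 5.96 CPM in WT control (interaction -2.15 ± 0.47). Slc8a1, the sodium-calcium exchanger, had an interaction of -0.69 ± 0.16, and Atp2a2, the calcium pump of the reticulum, one of -0.59 ± 0.16.

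Of 24 adult sarcomere genes, 8 were negative and 1 positive, with 6 to 11 negative when 1 library was left out. Lmod2, leiomodin 2, which lengthens thin filaments, was the positive one, with 541 and 424 CPM in Fpr2-KO SuHx, 355 and 319 CPM in Fpr2-KO control, 469 and 479 CPM in WT SuHx and 725 and 650.1 CPM in WT control (interaction 1.05 ± 0.18). Mypn, myopalladin of the Z-disc, had 77.6 and 84.2 CPM in Fpr2-KO SuHx, 185 and 187 CPM in Fpr2-KO control, 91.5 and 96.9 CPM in WT SuHx and 129.7 and 132 CPM in WT control (-0.72 ± 0.13), and SuHx lowered it in both genotypes. Actc1, cardiac actin, had 6946 and 7119 CPM in Fpr2-KO SuHx, 5142 and 4474 CPM in Fpr2-KO control, 7499 and 7838 CPM in WT SuHx and 1984 and 3208 CPM in WT control (-1.01 ± 0.28), with the WT controls lowest and far from each other.

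Adrenergic and cAMP genes had 6 of 20 negative and 0 positive, and 3 without WT SuHx library 3. Besides Akap6, the beta-1 adrenergic receptor gene Adrb1 had 12.8 and 16.9 CPM in Fpr2-KO SuHx, 20.6 and 21.2 CPM in Fpr2-KO control, 21.7 and 15.8 CPM in WT SuHx and 11.5 and 12.8 CPM in WT control (interaction -1.12 ± 0.27). Ion channel genes had 3 of 26 negative (7 without WT control library 1 and 5 without WT control library 2), and 1 positive, Kcnip2 (0.62 ± 0.15), a subunit of the transient outward potassium channel.

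Among genes of fuel use, glycolysis and glucose uptake had 6 of 22 negative and 0 positive. Fewer were negative without Fpr2-KO SuHx library 3 (3), WT SuHx library 3 (1) or WT control library 1 (3). Hk2, a hexokinase, had 156 and 158 CPM in Fpr2-KO SuHx, 200.1 and 156 CPM in Fpr2-KO control, 203 and 219.6 CPM in WT SuHx and 63.2 and 99.99 CPM in WT control (interaction -1.56 ± 0.29), lowest in WT control. SuHx raised it in WT (1.37 ± 0.21, edgeR adjusted p = 0.00386), and its difference in Fpr2-KO was -0.19 ± 0.20 (adjusted p = 0.617). Fatty acid oxidation genes had 4 of 34 positive (11.8%) and 0 negative, below the share of all genes, with a median of -0.09. Without Fpr2-KO SuHx library 3 it was 1 positive and 9 negative, and 0 were positive without Fpr2-KO control library 3 or WT control library 1, 1 without Fpr2-KO control library 2 and 2 without WT SuHx library 3. edgeR called 28 of the 34 lower under SuHx in Fpr2-KO and 28 in WT. Pdk4, a kinase that keeps pyruvate from oxidation, had 106 and 159.9 CPM in Fpr2-KO SuHx, 724 and 761 CPM in Fpr2-KO control, 262 and 119 CPM in WT SuHx and 4672 and 2544 CPM in WT control (interaction 1.76 ± 0.66, unadjusted p = 0.0384). Nuclear respiratory chain genes (36), mitochondrially coded genes (13) and cytosolic ribosomal protein genes (30) had 0 members at unadjusted p under 0.05. Without Fpr2-KO control library 3, 6 ribosomal protein genes were positive. Of the mitochondrially coded genes, 4 were negative without WT control library 1, 2 without Fpr2-KO SuHx library 3 and 1 without Fpr2-KO control library 2.

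Autophagy and lysosome genes had more members positive than negative. Of 20, 6 were positive and 0 negative at unadjusted p under 0.05 (median 0.18; 14 positive and 6 negative estimates), and 5 or 6 were positive when any 1 library was left out, with 1 negative without WT control library 1. Gabarapl1, which coats autophagosomes, had 97.9 and 67.8 CPM in Fpr2-KO SuHx, 93.1 and 99.9 CPM in Fpr2-KO control, 66.9 and 66.6 CPM in WT SuHx and 266 and 171 CPM in WT control (interaction 1.49 ± 0.32). Ulk1, the kinase that starts autophagy, had 82.8 and 94 CPM in Fpr2-KO SuHx, 90.2 and 74.4 CPM in Fpr2-KO control, 92.8 and 92.1 CPM in WT SuHx and 166 and 139.9 CPM in WT control (0.83 ± 0.18). Ctsl, a lysosomal protease, had 160.5 and 152 CPM in Fpr2-KO SuHx, 191 and 203 CPM in Fpr2-KO control, 146 and 146 CPM in WT SuHx and 402 and 292 CPM in WT control (0.91 ± 0.20). In all 3 genes the WT controls were the 2 highest libraries, and edgeR called them lower in Fpr2-KO than in WT controls, with differences of -1.18 ± 0.23, -0.89 ± 0.13 and -0.82 ± 0.14. With both Fpr2-KO SuHx library 2 and WT control library 1 left out, 3 of the 20 autophagy genes were positive and 1 negative. Without that pair the negative counts above became 11 for VEGF, 8 for calcium handling, 5 for sarcomere and 3 for glycolysis genes.

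The glucocorticoid and fasting list had all 17 tested members with a positive estimate (median 1.32), 5 of them at unadjusted p under 0.05. WT control stood apart in 11. Foxo3, a FoxO factor of fasting and atrophy, had 79.7 and 89.1 CPM in Fpr2-KO SuHx, 74 and 60.7 CPM in Fpr2-KO control, 74.9 and 92.4 CPM in WT SuHx and 187 and 131 CPM in WT control (interaction 1.25 ± 0.26, edgeR adjusted p = 0.139). Fkbp5, a glucocorticoid target that dampens its receptor, had 20.3 and 21.9 CPM in Fpr2-KO SuHx, 28.7 and 28.7 CPM in Fpr2-KO control, 8.3 and 23.3 CPM in WT SuHx and 167 and 83.3 CPM in WT control (2.54 ± 0.76). Fbxo32, the ubiquitin ligase atrogin-1, had 111 and 109.9 CPM in Fpr2-KO SuHx, 43.2 and 43.9 CPM in Fpr2-KO control, 118 and 102 CPM in WT SuHx and 380.0 and 86.1 CPM in WT control (2.43 ± 0.91), so 1 WT control library lay far above the other. The number at unadjusted p under 0.05 was 2 without Fpr2-KO SuHx library 3, 1 without Fpr2-KO control library 2, 9 without WT SuHx library 3, 2 without WT control library 1 and 9 without WT control library 2.

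Immediate early genes had 4 of 20 positive and 0 negative. Nr4a1, an orphan nuclear receptor induced within minutes of a stimulus, had 12.6 and 7.77 CPM in Fpr2-KO SuHx, 45 and 35.7 CPM in Fpr2-KO control, 6 and 9.68 CPM in WT SuHx and 142 and 212 CPM in WT control (interaction 2.52 ± 0.47, DESeq2 adjusted p = 5.21e-07). Its SuHx difference was -1.98 ± 0.34 in Fpr2-KO (edgeR adjusted p = 0.0177) and -4.50 ± 0.37 in WT (adjusted p = 0.000923). Btg2, an antiproliferative gene of the same kind, had 35.3 and 29.9 CPM in Fpr2-KO SuHx, 30.0 and 42.9 CPM in Fpr2-KO control, 25.7 and 36 CPM in WT SuHx and 234 and 112 CPM in WT control (2.33 ± 0.53). The count was 8 without WT control library 1, and 6 positive and 4 negative without WT control library 2. The immediate early median was 0.64 with all libraries and 0.16 without WT control library 2. With both Fpr2-KO SuHx library 2 and WT control library 1 left out it was 0.06. The glucocorticoid and fasting median was 1.32 with all libraries and 0.97 without that pair. WT control stood apart in 11 of 17 glucocorticoid and fasting and 6 of 20 immediate early genes. It did so in 6 of 22 VEGF, 5 of 20 endothelial, 3 of 12 mural, 9 of 21 calcium handling and 6 of 20 autophagy genes, against 21.7% of all tested genes. The part of the first lists in the results of the others was not tested.

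Immune lists lay on both sides of the share of all genes. Antigen presentation genes had 7 of 24 negative and 0 positive (median -0.78). The count was 3 when Fpr2-KO SuHx library 2, Fpr2-KO control library 2, WT SuHx library 1 or WT control library 1 was left out, and 14 without the other WT control library. Gbp2, an interferon-inducible GTPase, had 31.1 and 33.1 CPM in Fpr2-KO SuHx, 14.2 and 10.6 CPM in Fpr2-KO control, 34.9 and 35.3 CPM in WT SuHx and 5.37 and 6.75 CPM in WT control (-1.15 ± 0.24), and SuHx raised it in both genotypes, by 1.38 ± 0.17 in Fpr2-KO and 2.53 ± 0.18 in WT. Interferon-stimulated genes had 1 of 25 negative and 1 positive, below the share of all genes, and 6 negative without Fpr2-KO control library 3 or WT control library 2. Of macrophage and monocyte markers, 3 of 20 were negative and 0 positive (15%), near the 12.7% of all genes. Their estimates were positive in 7 and negative in 13. The median was -0.21 with all libraries, 0.08 without WT control library 1 and -0.59 without WT control library 2. Neutrophil markers had 2 of 9 negative and 0 positive, both of them scarce, and 0 to 4 negative when 1 library was left out, with 0 without Fpr2-KO control library 3. Cytokines and inflammation genes had 1 of 32 negative, and 8 without WT control library 2. T and NK cell markers had 1 of 13 negative, and 1 to 4 when 1 library was left out. Ccr2, the chemokine receptor of recruited monocytes, had 3.9 and 3.51 CPM in Fpr2-KO SuHx, 5.27 and 4.11 CPM in Fpr2-KO control, 3.49 and 3 CPM in WT SuHx and 0.601 and 0.989 CPM in WT control (interaction -2.37 ± 0.42), and Cx3cr1, of resident and patrolling cells, 1.58 and 2.83 CPM in Fpr2-KO SuHx, 0.948 and 1.32 CPM in Fpr2-KO control, 5.86 and 3.26 CPM in WT SuHx and 0.277 and 0.198 CPM in WT control (-3.30 ± 0.63). Cxcl12, a chemokine of stromal cells, had an interaction of -1.27 ± 0.23 and was again lowest in WT control. B cell markers had 6 of 11 negative at levels mostly near or under 1 CPM, and 0 without WT SuHx library 1, 2 without Fpr2-KO SuHx library 3 and 3 without Fpr2-KO SuHx library 2 or Fpr2-KO control library 3.

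Genes close to Fpr2 itself lay near the share of all genes. Of 14 tested ligands and lipid mediator enzymes, 1 was negative and 1 positive at unadjusted p under 0.05, together 14.3%. It was 4 negative and 2 positive without WT control library 2, and 0 positive without Fpr2-KO SuHx library 2, Fpr2-KO control library 3, WT SuHx library 1 or WT control library 1. Anxa1, which encodes the ligand annexin A1, had 38 and 27.7 CPM in Fpr2-KO SuHx, 20.9 and 18.3 CPM in Fpr2-KO control, 24.5 and 25.7 CPM in WT SuHx and 26.1 and 21.4 CPM in WT control (interaction 0.67 ± 0.24, unadjusted p = 0.0236). SuHx raised it in Fpr2-KO (0.75 ± 0.17, edgeR adjusted p = 0.0315), and in WT its difference was 0.08 ± 0.17. Anxa2, a related annexin, had 84 and 75 CPM in Fpr2-KO SuHx, 42.1 and 52 CPM in Fpr2-KO control, 65 and 58.7 CPM in WT SuHx and 21.4 and 24.2 CPM in WT control (-0.68 ± 0.19) and rose under SuHx in both genotypes.

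Cell cycle genes had 8 of 30 negative and 2 positive (median -0.75), and 4 negative without Fpr2-KO SuHx library 2. Cenpf, a kinetochore protein, had 29.8 and 23.4 CPM in Fpr2-KO SuHx, 18.1 and 9.23 CPM in Fpr2-KO control, 27.5 and 26.8 CPM in WT SuHx and 4.14 and 3.49 CPM in WT control (-1.87 ± 0.40). SuHx raised 11 of the 30 in Fpr2-KO and 21 in WT. Extracellular matrix genes had 2 of 36 negative and 4 positive. The negative count was 12 without WT control library 2 and 0 without WT SuHx library 1. Ccn2, a matricellular target of YAP and TGF-beta, had 299 and 109 CPM in Fpr2-KO SuHx, 134 and 133 CPM in Fpr2-KO control, 75.1 and 93.4 CPM in WT SuHx and 1259 and 616 CPM in WT control (4.09 ± 0.80). WT control lay far above, with wide gaps between the libraries of WT control and between those of Fpr2-KO SuHx, where library 2 was the higher. Dcn, decorin of fibroblasts, had 723 and 667 CPM in Fpr2-KO SuHx, 809.7 and 823 CPM in Fpr2-KO control, 499 and 523 CPM in WT SuHx and 832 and 897 CPM in WT control (0.53 ± 0.13), a case in which WT SuHx was lowest. Hypoxia targets had 5 of 24 negative and 3 positive, and 1 positive without either Fpr2-KO control library or without WT SuHx library 1. Egln3, an oxygen-sensing hydroxylase, had 99.8 and 82.6 CPM in Fpr2-KO SuHx, 105 and 125 CPM in Fpr2-KO control, 91.3 and 97.1 CPM in WT SuHx and 24.6 and 42.6 CPM in WT control (-1.82 ± 0.33), with the WT controls lowest.

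Cyp1a1, a cytochrome P450 induced through the aryl hydrocarbon receptor, had 249 and 172 CPM in Fpr2-KO SuHx, 0.201 and 0.435 CPM in Fpr2-KO control, 212 and 255 CPM in WT SuHx and 2.11 and 1.29 CPM in WT control. It was near absent in all control libraries and high in all SuHx libraries. SuHx raised it by 9.37 ± 0.43 in Fpr2-KO and 7.11 ± 0.38 in WT, with an interaction of 2.26 ± 0.51 (edgeR adjusted p = 0.183). The genotype difference was -0.15 ± 0.28 under SuHx and -2.41 ± 0.42 in controls, where the levels are low. Of 8 tested targets of this receptor, 3 were positive (37.5%) and 0 negative at unadjusted p under 0.05, against 12.7% of all tested genes.

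Fpr2-KO control stood apart in other lists. It did so in 13 of 30 splicing regulators and in 11 of 19 heat shock genes, against 13% of all tested genes. Hspb6, a small heat shock protein of muscle, had 551 and 623 CPM in Fpr2-KO SuHx, 837 and 805 CPM in Fpr2-KO control, 688 and 679 CPM in WT SuHx and 593 and 694 CPM in WT control (interaction -0.57 ± 0.15). At unadjusted p under 0.05, 2 of the 19 heat shock genes were negative (10.5%) and 0 positive, and 9 were negative without WT control library 2. Mbnl1, a splicing factor of muscle maturation, had 101 and 106 CPM in Fpr2-KO SuHx, 138 and 158 CPM in Fpr2-KO control, 114 and 112 CPM in WT SuHx and 97.6 and 88 CPM in WT control (interaction -0.79 ± 0.15). Outside these lists, Perm1, a muscle regulator of mitochondrial genes, had 210.1 and 269 CPM in Fpr2-KO SuHx, 394 and 420.0 CPM in Fpr2-KO control, 269 and 311 CPM in WT SuHx and 203 and 236 CPM in WT control (-1.16 ± 0.20), and Tbx20, a cardiac transcription factor, 94 and 94.2 CPM in Fpr2-KO SuHx, 171 and 155 CPM in Fpr2-KO control, 99.2 and 80.6 CPM in WT SuHx and 72.9 and 87.5 CPM in WT control (-0.96 ± 0.19). In Hspb6 and these 3 genes Fpr2-KO control was above all other libraries. At unadjusted p under 0.05, 4 splicing regulators were negative and 1 positive, and 15 were negative without WT control library 2.

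Atrial markers differed within the pairs of Fpr2-KO SuHx and WT control. Myl4, an atrial myosin light chain, had 426 and 0.962 CPM in Fpr2-KO SuHx, 1.05 and 1.32 CPM in Fpr2-KO control, 1.21 and 5.21 CPM in WT SuHx and 14.2 and 52.4 CPM in WT control, and Bmp10, an atrial growth factor, 332 and 0.0542 CPM in Fpr2-KO SuHx, 0 and 0 CPM in Fpr2-KO control, 0 and 0 CPM in WT SuHx and 0.0616 and 5.27 CPM in WT control. The high value is that of Fpr2-KO SuHx library 2 in each. The interaction of Myl4 was 10.87 ± 3.98 (unadjusted p = 0.0485). Of 10 atrial markers, 3 were positive at unadjusted p under 0.05 and 9 had a positive estimate. The count was 1 without Fpr2-KO SuHx library 2, 8 without library 3 of that group, and 0 when any 1 of the other 6 libraries was left out.

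Of the markers of further tissues, those of skeletal muscle, red cells, mesothelium, and valve and cartilage had 0 members at unadjusted p under 0.05. Without Fpr2-KO SuHx library 3, 4 valve and cartilage and 2 mesothelium markers were positive. The 10 valve and cartilage markers summed to 72.5 CPM in Fpr2-KO SuHx library 2 and 25 CPM in library 3 of that group. Adipocyte markers had 3 of 7 positive (42.9%) and 0 negative, and 2 to 4 positive when 1 library was left out. Their sum was 626 and 699 CPM in Fpr2-KO SuHx, 1328 and 1398 CPM in Fpr2-KO control, 746 and 689.8 CPM in WT SuHx and 2136 and 1818 CPM in WT control. The part of these tissues in the results was not tested.

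**Figure D5:**
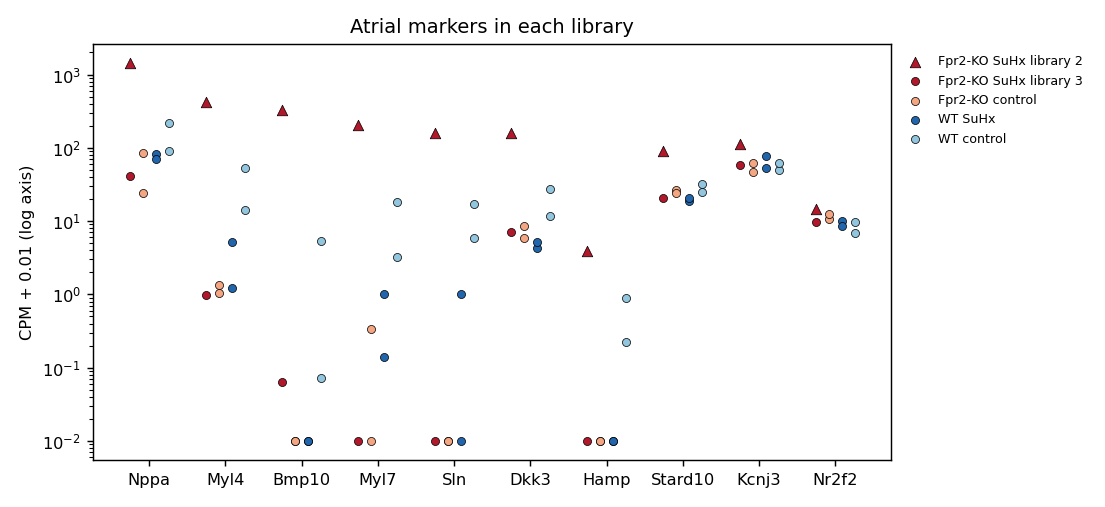
CPM plus 0.01 (log axis) of 10 atrial markers in each library, by group. Fpr2-KO SuHx library 2 (triangles) is highest for each marker, with 1441 CPM of Nppa against 41.8 CPM in library 3 of its group.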

How the data were processed

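Bulk poly(A) RNA of the right ventricle was sequenced in 8 libraries with a strand-marking kit. The submitters' processing notes name mm10 as the build and list edgeR, DESeq2, StringTie 2.1.6, HISAT2 2.2.1 and cutadapt 1.9 without saying what each did. Neither the gene annotation nor the strand setting of the counting is given in the sources used here. The deposited counts per gene are whole numbers without normalization and were tested as deposited. Another 8 per-sample columns were not used. A library keeps its column's number (2 and 3 for both Fpr2-KO groups, 1 and 3 for WT SuHx, 1 and 2 for WT control). These numbers do not follow the sample titles outside WT control.

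Genes were filtered with filterByExpr by group, which left 19083 of 30495, scaled by TMM and fitted with edgeR 4.0.16 (R 4.3.3) by a robust quasi-likelihood fit with 1 mean per group and 4 residual degrees of freedom. All 5 contrasts come from this fit, two-sided, with Benjamini-Hochberg adjustment over all tested genes, and a gene is called at an adjusted p under 0.05. DESeq2 1.42.0 (Wald test) was an alternative; its adjusted p was missing for 5550 genes. The procedure was also run on simulated data. There the changes were placed in Fpr2-KO SuHx alone, and each gene had the same spread in all groups, unlike these libraries. It therefore does not tell which of the 2 tools is right here. Group means for the sorting are of log2 CPM with a prior count of 2. CPM use the TMM-scaled library size. The libraries of a pair were no copies of each other (chi-square per degree of freedom 23.9 to 78.7, pooled over genes). At this depth the number of libraries limits precision, and for genes of few counts counting error does so too.

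The members, the gene lists and the rules were chosen with earlier results of these data known. Had 20 or more genes been called, the largest of each class would have been named; since fewer were, the 30 of smallest p with at least 5 CPM in 1 group are named, of which 1 is not reported here. Within lists, the examples are mostly members of smallest interaction p, chosen after their values were seen, as were the 12 genes plotted. Alternatives were other scalings and filters, a block by column number, other gap and prior settings and leaving out each library or a pair chosen with earlier results known. Promoters were taken from RefSeq by symbol.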

Additional observations from a re-analysis of the deposited data

How the results depend on the processing

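All 30 named genes kept the sign of their interaction in all 450 repeats. They were chosen by smallest p on the same libraries that the repeats reuse, so the kept sign is no support for them. With all 8 libraries, DESeq2 called 30 of them and edgeR without a low count filter 12. With a block by column number edgeR called 0, at adjusted p from 0.14 to 0.206. The number of genes called in the interaction, 0, became 584 with DESeq2, 12 without a low count filter (all 12 among the 30), 0 to 756 leaving out 1 library and 2 leaving out the pair of Fpr2-KO SuHx library 2 and WT control library 1. These 4 settings gave 583, 12, 0 to 756 and 2 genes also called in a single comparison. Genes at an unadjusted p under 0.05 were 1569 (without Fpr2-KO SuHx library 2) to 4060 (without WT control library 2) leaving out 1 library, and 1561 without the pair. Fpr2-KO against WT under SuHx gave 23 calls with DESeq2, 0 to 5 leaving out 1 library and 3 without the pair. In controls it gave 1944 with DESeq2, 0 to 2370 leaving out 1 library and 43 without the pair. With a gap over 0.4, Fpr2-KO SuHx stood apart in 1885 genes. With a gap over 0.6 the counts were 729 for Fpr2-KO SuHx, 1613 for Fpr2-KO control, 700 for WT SuHx and 2736 for WT control. Leaving out 1 library, Fpr2-KO SuHx stood apart in 1113 to 2222. Of the genes first sorted to a group, 63.3% kept their sorting with a gap over 0.6 and 52.3% did so without the pair. Why the tools, filters and left-out libraries gave other counts was not tested.

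When the column number entered as a replicate block, the interaction gave 0 calls, Fpr2-KO against WT gave 1 under SuHx and 9 in controls. The deviations of libraries 3 and 2 in the Fpr2-KO groups correlated at 0.00 across genes. Whether the numbers pair the samples cannot be told from this. The WT groups were not examined, and a shared factor acting on few genes would not show. With 2 libraries a group, precision is limited by their number, and for genes of few counts, such as Fpr2, by counting error too. A p that misses the threshold does not show that groups are alike.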

Other observations

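Some nuclear receptor and clock genes also had WT control highest or lowest. Of 18 clock genes, 2 had a positive and 3 a negative interaction at an unadjusted p under 0.05, and of 12 genes of steroid and thyroid hormone action 3 were positive and 1 negative, against 12.7% of all tested genes. Bhlhe41, a repressor of the clock, had 25.8 and 24.1 CPM in Fpr2-KO SuHx, 24.1 and 29 CPM in Fpr2-KO control, 31.9 and 34.2 CPM in WT SuHx and 14.2 and 19.8 CPM in WT control (-1.05 ± 0.24), with WT control lowest. Nr3c1, the gene of the glucocorticoid receptor, had 69.8 and 74.2 CPM in Fpr2-KO SuHx, 64.5 and 62.8 CPM in Fpr2-KO control, 82.6 and 73.7 CPM in WT SuHx and 49.5 and 39.9 CPM in WT control (-0.63 ± 0.17), again with WT control lowest. Hsd11b1, whose enzyme regenerates active glucocorticoid, had 9.88 and 7.24 CPM in Fpr2-KO SuHx, 11.2 and 25.8 CPM in Fpr2-KO control, 6.99 and 7.64 CPM in WT SuHx and 60.5 and 34.1 CPM in WT control (1.58 ± 0.61), with WT control highest and wide gaps within both control pairs. Leaving out 1 library gave 1 to 4 positive and 1 to 6 negative clock genes, with the most without WT control library 2 and 1 of each without Fpr2-KO control library 2 or WT control library 1. It gave 0 to 4 positive hormone genes, with 0 without Fpr2-KO SuHx library 2, WT SuHx library 1 or WT control library 1.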
